A study of Homo sapiens with 4 samples.

Results

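The data described here are the genes that stood at least 1.5-fold away from uninduced cells, in the same direction, after both 3 and 4 days of IκBα super-repressor induction in EJM cells. EJM is an established human multiple myeloma cell line, a malignant counterpart of the antibody-secreting plasma cell. Members were chosen by their measured day 3 and day 4 values: a gene was kept when the log2 ratio of induced to uninduced cells had the same sign on both arrays and an absolute value of at least 0.585 on each. Of 4371 named genes with a value on both arrays, 57 met this rule. The whole table holds 4518 named genes with a value on any array. Because these values selected the genes, they are given as a description without a test.

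The experiment comprised 4 two-colour cDNA arrays, one each for 1, 2, 3 and 4 days of 20 µg/ml doxycycline at 37 °C. On each array the Cy5 channel held RNA of induced cells and the Cy3 channel RNA of uninduced EJM cells. Per the labels both channels came from cells that carry the same transgene, an IκBα super-repressor under tetracycline repressor control, so the control differed in not being induced. Whether the line is 1 clone, the control was 1 RNA preparation for all arrays, and whether EJM cells without the construct received doxycycline was not stated by any source used here. With 1 array per day there is no replicate of a day, and an effect of doxycycline itself cannot be told apart from that of the transgene.

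IκBα binds NF-κB dimers and keeps them out of the nucleus until signalling marks it for destruction by the proteasome. A super-repressor form lacks the signal-responsive sites and goes on holding NF-κB in the cytoplasm. In plasma cells and myeloma NF-κB supports survival, and its direct targets include its own feedback inhibitors, cytokines, adhesion molecules and genes of antigen presentation. As RNA was taken from whole cultures, fewer cells of a kind and less RNA per cell cannot be told apart.

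The table does not state the direction or the base of its log ratios. The direction was taken from the dyes as Cy5 over Cy3, so a table made the other way round would carry opposite signs. Base 2 was assumed. With a natural log, the same threshold would stand for a 1.79-fold difference. The arrays differed in how widely the ratios spread: the SD over probes was 0.345 on day 3 and 0.380 on day 4, against 0.517 and 0.569 on days 1 and 2. Values were present for 13544 probes on day 3 and 13872 on day 4, and for 11386 and 10321 on days 1 and 2. The median over the 4371 genes was 0.007 on day 3 and -0.006 on day 4, so a log2 ratio of 0 stands close to the typical gene. Ratios give no expression level, so the labelled cell type could not be checked from them. NFKBIA, which encodes IκBα itself, had mean log2 ratios of -0.10 on day 3 and -0.18 on day 4, but its probes ran from -0.50 to 0.38 on day 3. It is unknown whether these probes see the transgene, and induction could not be checked by this gene.

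Of the 57 genes 33 were higher in induced cells (0.755% of the 4371) and 24 were lower (0.549%). These shares are set by the rule itself. On the day 3 array alone 162 genes lay past the threshold in either direction, and on the day 4 array alone 220. None of the 4371 genes lay past it on both days with opposite signs. Only 9 of the 57 were at least 2-fold away on both days: TNFAIP3, HLA-DRA, DPYSL2, IL2RG, RAP2A and AFF2 were lower, and DHRS9, ITGB7 and SPP1 higher. Days 3 and 4 differed little for most of the set, which the rule itself favours, so this is a description only. The absolute difference between day 3 and day 4 had a median of 0.177 among the higher genes and 0.117 among the lower ones. It exceeded 0.585 for 5 higher genes (ABCA5, SPP1, SSR3, POGK and MSX2) and for no lower gene.

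**Figure D1:**
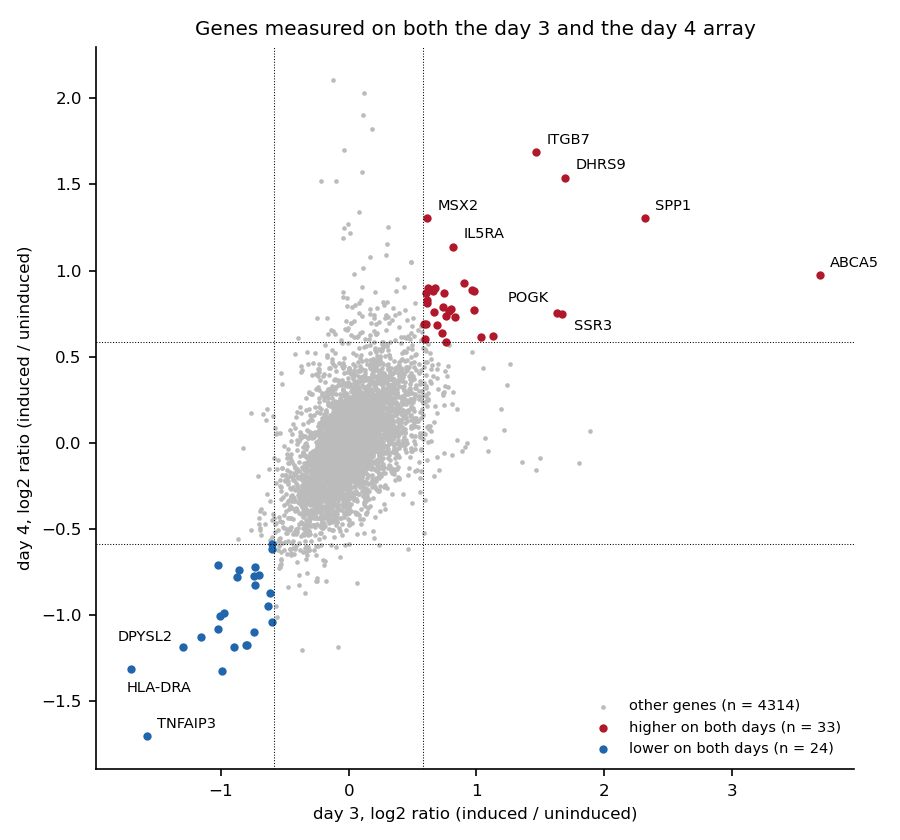
Log2 ratio of induced over uninduced cells on day 3 (horizontal) against day 4 (vertical), 1 point per gene, for 4371 genes. Dotted lines mark the threshold of 0.585, red points are the 33 genes past it on the higher side on both days and blue points the 24 on the lower side, and ABCA5 lies far to the right with 3.69 on day 3 and 0.97 on day 4.

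TNFAIP3 had the lowest ratios of the set apart from HLA-DRA on day 3. It encodes A20, the ubiquitin-editing enzyme that shuts off NF-κB signalling and is itself switched on by NF-κB. Its log2 ratios on days 1 to 4 were -1.07, -1.52, -1.58 and -1.70, a 3.12-fold lower level on the mean of days 3 and 4. All 6 of its probes lay below 0 on days 3 and 4, from -2.25 to -0.56 on day 3 and from -2.34 to -0.92 on day 4. UBD encodes the ubiquitin-like modifier FAT10, induced by TNF and interferon γ. It read -1.14, -1.22, -0.90 and -1.18 on days 1 to 4, with no order over the days. FAS, the death receptor, read -0.59, -0.68, -0.80 and -1.17, with the lowest value on day 4 and 4 of 4 probes below 0 on both late days.

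Among the 64 measured genes of a list of NF-κB targets, 3 were in the lower set (TNFAIP3, UBD and FAS) and 2 in the higher set (CCL3 and TNFAIP2). The list median was -0.09 on both late days, after -0.21 and -0.22 on days 1 and 2. On both late days 33 of the 64 genes lay below 0 and 15 above. Over all 4371 genes the corresponding shares were 34.9% below and 35.2% above, and for the list they were 51.6% and 23.4%. CCL3, the macrophage inflammatory chemokine MIP-1α, read 0.57, 0.66, 0.79 and 0.76 on days 1 to 4. TNFAIP2, a TNF-inducible protein that shapes membrane protrusions, read 0.64 on day 1, 0.62 on day 3 and 0.83 on day 4 and has no day 2 value. Both were on the opposite side from A20 on every array where they were measured. Of the genes for NF-κB subunits and IκB proteins, 0 of 9 met the rule. Over all genes 0.755% met it on the higher side and 0.549% on the lower. At such shares a count of 0 in a short list says little about the list. NFKB2 (p100/p52) read -0.76, -1.50, -0.76 and -0.51 on days 1 to 4, and RELB -0.94, -0.85, -0.65 and -0.47. Both were past the threshold on days 1, 2 and 3 but not on day 4. Of 25 signalling adaptors and kinases, 0 met the rule, which says as little at the same shares. The TNF receptor TNFRSF1B, at -0.69 and -0.51, was the lowest of these on day 3.

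Promoter windows bear on this set because NF-κB binds a short κB sequence near many of its targets. RefSeq windows (GRCh38.p14, 250 bases before to 50 after the annotated start) matched 48 of the 57 genes by symbol. The 10-letter κB consensus, searched on both strands, was found in 4 of 19 windows of lower genes (TNFAIP3, UBD, MCM7 and CD74) and in 2 of 29 windows of higher genes (LDLRAD4 and TNFRSF25). That is 21.1% and 6.90%, beside 7.27% of the 3561 measured genes with a window and 5.72% of all 27305 windows. The 9-letter form GGNNTTTCC, which overlaps the consensus, was found in 4 lower genes (TNFAIP3, UBD, CXCR4 and CD74) and 1 higher gene (TNFAIP2), beside 7.08% of measured genes and 6.26% of all windows. A match describes letters in a window and is not evidence of binding. The 250 bases before the start are printed for the leading genes of each direction with a match, in the gene's own 5′ to 3′ direction, with matches to either form in capitals. They lie at chr6:137867009-137867258 (plus strand), chr6:29559733-29559982 (minus strand), chr14:103123211-103123460 (plus strand) and chr18:13217722-13217971 (plus strand).
TNFAIP3: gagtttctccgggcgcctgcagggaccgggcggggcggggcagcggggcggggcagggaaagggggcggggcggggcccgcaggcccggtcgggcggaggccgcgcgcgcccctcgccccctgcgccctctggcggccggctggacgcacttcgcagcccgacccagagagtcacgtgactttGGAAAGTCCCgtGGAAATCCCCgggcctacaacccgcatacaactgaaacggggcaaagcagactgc
UBD: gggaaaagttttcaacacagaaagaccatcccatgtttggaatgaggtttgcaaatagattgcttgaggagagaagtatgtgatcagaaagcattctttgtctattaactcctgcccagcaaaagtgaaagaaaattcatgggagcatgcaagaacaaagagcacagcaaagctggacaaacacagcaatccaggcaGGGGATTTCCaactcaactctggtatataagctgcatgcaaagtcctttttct
TNFAIP2: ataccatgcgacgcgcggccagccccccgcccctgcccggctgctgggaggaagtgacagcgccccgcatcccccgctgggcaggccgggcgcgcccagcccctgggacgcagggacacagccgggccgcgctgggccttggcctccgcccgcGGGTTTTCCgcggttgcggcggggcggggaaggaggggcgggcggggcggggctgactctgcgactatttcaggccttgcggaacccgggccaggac
LDLRAD4: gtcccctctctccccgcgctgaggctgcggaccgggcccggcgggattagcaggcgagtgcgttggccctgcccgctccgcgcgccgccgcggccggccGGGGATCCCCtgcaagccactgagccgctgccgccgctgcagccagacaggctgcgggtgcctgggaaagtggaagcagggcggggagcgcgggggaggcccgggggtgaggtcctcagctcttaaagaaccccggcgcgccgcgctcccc

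In TNFAIP3 a pair of matches lay side by side, with leftmost bases at -67 and -55 from the start, both on the opposite strand. In UBD the match began at -53. TNFAIP2 held the 9-letter form at -97 without the full consensus, and LDLRAD4 held a palindromic match at -151. TNFAIP3 and UBD were lower on every array, while TNFAIP2 was above 0 wherever it was measured. LDLRAD4 did not keep a side, with -0.77 on day 2.

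Antigen presentation through MHC class II, which displays peptides to helper T cells, was represented in the lower set by its α chain and its chaperone. HLA-DRA read -0.54, -0.81, -1.71 and -1.31 on days 1 to 4. The apparent step back on day 4 came with another probe that has a value on that day alone (-0.015). With the 4 probes measured on both late days HLA-DRA read -1.71 on day 3 and -1.64 on day 4. CD74, the invariant chain that guides class II molecules to the endosome, read -0.22, -0.52, -1.02 and -0.71. Of its 11 probes with values on both late days 8 lay below -0.585 on both, down to -1.89, while the other 3 lay above 0 on day 4. The highest CD74 probe read 0.30 and 0.92, on the other side of 0 from the gene average.

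On days 3 and 4 the rest of the class II list lay closer to 0. In all 2 of 10 measured members met the rule, both lower, beside 0.549% of all genes on that side. The list was chosen with earlier results of these data known, so the count is a description only. The list medians were -0.30 and -0.63 on days 1 and 2, then -0.28 on day 3 and -0.27 on day 4. HLA-DQB1 read -0.55 and -0.43, and HLA-DRB1 -0.59 and -0.41, past the threshold on day 3 but not on day 4. CIITA, the transactivator of class II genes, read 0.08 and 0.21, and HLA-DOB 0.07 and 0.61. Of 12 class I and peptide-loading genes only UBD was in the set, a count that says little beside 0.549% of all genes. PSMB9, a subunit of the immunoproteasome, read -0.62 on day 3 and -0.56 on day 4, and the list medians were -0.02 on both days. Probes of HLA genes can cross-hybridise with related class II transcripts.

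Receptors for cytokines and chemokines appeared on both sides. IL2RG, the common γ chain shared by the receptors for IL-2, IL-4, IL-7, IL-15 and IL-21, read -0.78, -1.13, -1.15 and -1.13, and all 5 of its probes lay past the threshold on both late days. CXCR4, the receptor for CXCL12 that retains plasma cells in the marrow, read -0.10, -0.64, -0.74 and -1.10. Its 5 probes with values ran from -1.23 to -0.85 on day 4, and every one was lower on day 4 than on day 3. IL5RA, the α chain of the IL-5 receptor, was higher at 1.00, 1.36, 0.82 and 1.14, with 3 of 3 probes past the threshold on both late days. Among 33 measured cytokine receptor and JAK-STAT genes, IL5RA was the 1 higher and IL2RG the 1 lower gene, and the medians were 0.001 and 0.086. Among 26 chemokines and their receptors, CCL3 was the 1 higher and CXCR4 the 1 lower gene. Over all genes 0.755% were higher and 0.549% lower, so counts of 1 in these lists say little about the families.

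ITGB7 had the highest late ratios among genes with 3 or more measured probes. It encodes integrin β7, which pairs with α4 or αE and binds MAdCAM-1 or E-cadherin. It read 1.27, 1.50, 1.47 and 1.69, a 2.98-fold higher level on the mean of days 3 and 4. Its 3 probes with values ran from 1.03 to 1.91 on day 3 and from 1.33 to 2.12 on day 4. ITGB7 was the only 1 of 36 measured integrin and adhesion genes to meet the rule in either direction. Beside 0.755% of all genes higher and 0.549% lower, a count of 1 says little about the list. SPP1 (osteopontin), a secreted phosphoprotein and ligand of integrins and CD44, read 0.51, 0.63, 2.32 and 1.30 on its single probe. The day 3 and day 4 values of SPP1 lie far apart.

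**Figure D2:**
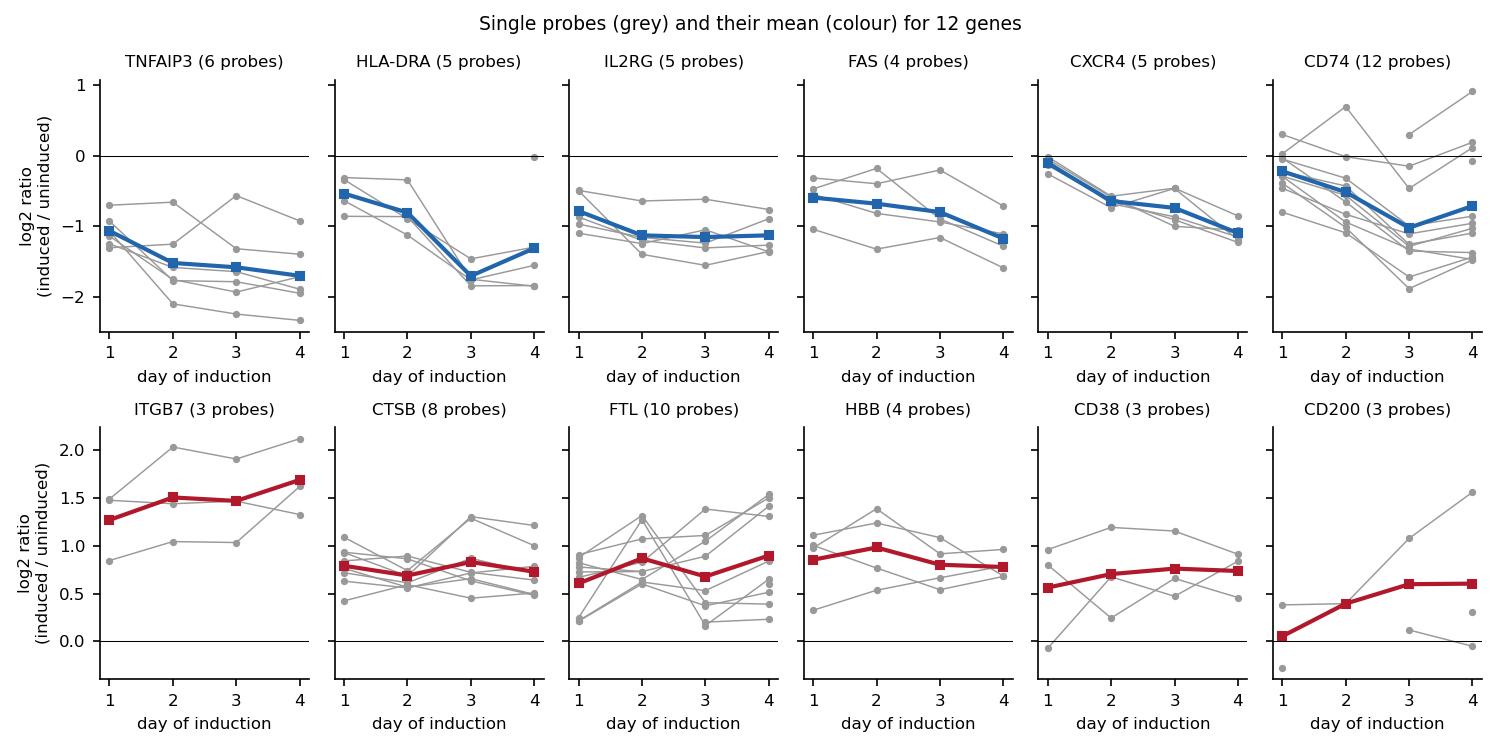
Log2 ratio of induced over uninduced cells by day of induction for 12 genes of the set with 3 or more measured probes, lower genes in the upper row and higher genes in the lower row. Grey lines are single probes and the coloured line their mean on each day. TNFAIP3, IL2RG, FAS, CXCR4, ITGB7, CTSB, FTL and HBB keep every probe on one side of 0 on days 3 and 4, CD74 and CD200 do not, and the HLA-DRA mean is pulled up on day 4 by a probe at -0.015.

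The higher set held SPCS3 and SSR3 of the secretory pathway, the joining chain gene JCHAIN and the surface marker CD38. SPCS3, a subunit of the signal peptidase that trims nascent secreted proteins, read 0.31, 0.56, 0.97 and 0.89 on 1 probe. SSR3, a subunit of the translocon-associated complex, read 0.07 on day 1, 1.67 on day 3 and 0.75 on day 4. It rests on 1 probe, described with ABCA5 below. JCHAIN, the chain that joins IgA and IgM into polymers, read 1.75, 0.73, 0.74 and 0.79, and its day 1 value includes a probe at 3.90. That probe read 0.18 and 0.015 on days 3 and 4. Of 4 JCHAIN probes with both late values 2 were past the threshold on both days. CD38, the NAD-consuming surface enzyme used as a plasma cell marker, read 0.56, 0.70, 0.76 and 0.74, with 1 of its 3 probes past the threshold on both late days. CD38 stayed within a narrow band on all 4 arrays.

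Of 32 measured genes for folding and transport in the endoplasmic reticulum, 2 met the rule (SPCS3 and SSR3), beside 0.755% of all genes. On both late days 20 lay above 0, a share of 62.5% beside 35.2% of all genes. The list medians were 0.17 and 0.15, below the 0.52 and 0.41 of days 1 and 2. HSPA5 (BiP), the main chaperone of this compartment, read 0.98, 0.62, 0.28 and 0.73 on days 1 to 4. PDIA4, a disulfide isomerase, read 1.22, 1.11, 0.24 and 0.70. Both were below the threshold on day 3. Of 23 plasma cell genes 4 were higher (ITGB7, JCHAIN, CD38 and SSR3) and 1 lower, beside 0.755% and 0.549% of all genes. The lower one was ELL2, an RNA polymerase elongation factor that favours the secreted form of immunoglobulin mRNA, at -0.60 and -0.585. XBP1, the transcription factor of the secretory programme, read 0.85, 0.70, 0.24 and -0.20 on days 1 to 4. PRDM1 (Blimp-1) read 0.46, 0.89, -0.06 and -0.10, and SDC1 (CD138) 1.15, 0.70, 0.35 and 0.16.

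The higher set held 2 lysosomal proteases, CTSA and CTSB, and the ferritin chain FTL. CTSA, the protective protein cathepsin A, read 0.86, 0.80, 0.90 and 0.92 on a single probe. CTSB, the cysteine protease cathepsin B, read 0.79, 0.69, 0.83 and 0.73, with all 8 probes above 0 on both late days, from 0.45 to 1.30 on day 3. FTL, the light chain of ferritin, read 0.61, 0.87, 0.68 and 0.90, and its 9 probes with both late values were all above 0, 4 of them past the threshold on both days. Of 20 lysosomal genes 2 met the rule, both higher, beside 0.755% of all genes. The lists were chosen with earlier results of these data known, so such counts are descriptions only. On both days 12 (60.0%) lay above 0, beside 35.2% of all genes, with medians of 0.17 and 0.23. Of 18 measured genes of iron handling, metallothioneins and antioxidant defence FTL alone met the rule, the medians were 0.13 and -0.065, and 38.9% lay above 0 on both days beside 35.2% of all genes. In the lysosomal list LGMN, an asparaginyl endopeptidase, read 0.39 and 0.76, and the lipase LIPA 0.48 and 0.60.

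The lower set held 4 genes tied to cell division. In the higher set GAS2L3, which links actin and microtubules, went the other way, at 0.75 on day 3 and 0.87 on day 4. MCM7, a subunit of the replicative helicase, read 0.22, -0.52, -0.74 and -0.83. MYBL2 (B-Myb), which drives genes of the S to M phases, read 0.31, -0.67, -0.60 and -1.04. NCAPG2, a subunit of condensin II that compacts mitotic chromosomes, read -0.14, -0.90, -0.80 and -1.17. TUBA1A, an α-tubulin, read 0.20, -0.34, -0.64 and -0.95, and its probes may also detect related tubulins. For all 4 genes day 1 lay near or above 0 and day 4 was the lowest value.

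Lists of cell cycle genes lay below the typical gene on both days. Of 32 measured S phase genes 1 (MCM7) met the rule, 27 lay below 0 on both days and 0 above 0 on both, that is 84.4% beside 34.9% of all genes. The medians were -0.004 and -0.31 on days 1 and 2, then -0.26 on day 3 and -0.36 on day 4. MCM5 read -0.58 and -0.52 on days 3 and 4. The thymidine kinase TK1 (-0.54 and -0.60) and CDC6, which loads the helicase (-0.51 and -0.62), were past the threshold on day 4 but not on day 3. On day 2 CDC6 was also past it, at -0.64, and TK1 read -0.49. PCNA, the sliding clamp of DNA polymerase, read -0.39 and -0.83. Of 49 G2/M genes 1 (TUBA1A) met the rule. Beside 0.549% of all genes on the lower side, counts of 1 in these lists say little. The G2/M medians were 0.14 and -0.25 on days 1 and 2, then -0.18 on day 3 and -0.35 on day 4. On both late days 38 G2/M genes (77.6%) lay below 0, beside 34.9% of all genes, and 5 above. The survivin gene BIRC5 read -0.43 and -0.64, the kinase CDK1 -0.24 and -0.60, and topoisomerase TOP2A -0.18 and -0.69. Most members lay under the 1.5-fold threshold.

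**Figure D3:**
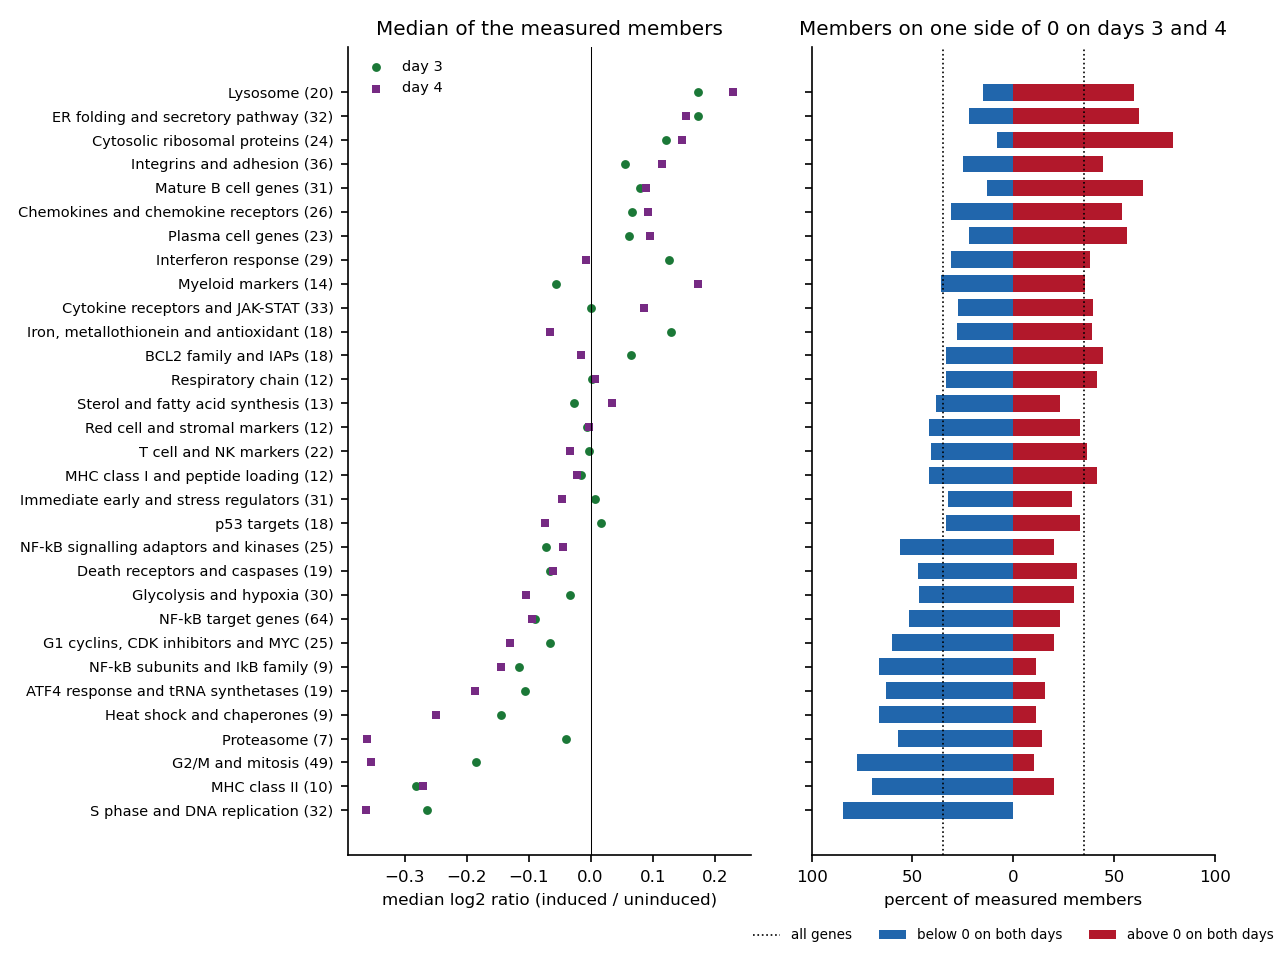
Fixed gene lists, with the number of members measured on both arrays in brackets. Left, the median log2 ratio of induced over uninduced cells on day 3 (circles) and day 4 (squares); right, the percent of members below 0 (blue) or above 0 (red) on both days, with dotted lines at the 34.9% and 35.2% of all 4371 genes. On day 3 the MHC class II, S phase and G2/M medians are the lowest and the lysosomal and endoplasmic reticulum medians the highest.

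Other lower genes carried diverse roles. DPYSL2, a microtubule-binding protein of the collapsin response family, read -1.13, -1.06, -1.30 and -1.18, with both probes past the threshold. RAP2A, a Ras-related GTPase, read -0.64, -0.28, -1.02 and -1.08. ZYG11B, which recruits substrates to a cullin ubiquitin ligase, read -0.58, -0.86, -0.99 and -1.33. On its 1 probe with both late values ZYG11B read -1.21 and -1.33. AFF2, a nuclear protein of the fragile X-related FMR2 family, read -0.22 on day 1, -1.01 on day 3 and -1.01 on day 4. Its late pair of values was almost identical. ACOT7, an acyl-CoA thioesterase, read -0.19, -0.32, -0.98 and -0.99, and FABP5, a fatty acid carrier, -0.42 on day 2, -0.73 on day 3 and -0.72 on day 4. Both handle fatty acyl groups, and both rest on 1 probe.

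Kinases and transcription factors followed. CDK14, a cyclin-dependent kinase, read -0.19, -0.54, -0.87 and -0.78, and MAPK7 (ERK5) -0.28, -0.06, -0.62 and -0.87, each on 1 measured probe. CBFB, the partner of RUNX factors, read -0.02, -0.62, -0.86 and -0.74, and its 2 measured probes differed in size, at -0.51 and -1.20 on day 3. USF1, which binds E-box sequences, read -0.42, -0.47, -0.60 and -0.62. CLOCK, the circadian transcription factor, read 0.69, 0.29, -0.70 and -0.77, crossing 0 between days 2 and 3. CST3 (cystatin C), an inhibitor of cysteine proteases such as cathepsin B, read 0.14 on day 1, -0.74 on day 3 and -0.78 on day 4, while CTSB itself was higher.

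The higher set held further genes of signalling and the cell surface. TLR4, the receptor for bacterial lipopolysaccharide, was measured by 1 probe on the late arrays alone, at 0.66 and 0.88. TNFRSF25 (death receptor 3) read 0.42, -1.14, 0.62 and 0.90, and its probes read 0.33 and 0.91 on day 3. CD200, an immunoglobulin-family ligand that restrains myeloid cells, read 0.05, 0.40, 0.60 and 0.60. Of its 2 probes with both late values one read 0.12 and -0.05 and the other 1.08 and 1.56, so CD200 rests on the latter. RET, a receptor tyrosine kinase, read -0.57, -0.74, 0.69 and 0.68, and on day 3 its probes stood at 1.33 and 0.05. LDLRAD4, a restrainer of TGF-β signalling, read 0.15, -0.77, 0.98 and 0.77. GLIPR1, a secreted or membrane protein related to plant defence proteins, read 0.60, 0.52, 0.73 and 0.64.

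Enzymes and transporters made up another share. DHRS9, a dehydrogenase of retinoids and steroids, read 0.89, 1.18, 1.69 and 1.54, a 3.07-fold higher level on the mean of days 3 and 4, and its 2 probes ran from 1.47 to 1.84 on these days. DHRS9 had the largest ratio of the higher set when each gene is judged by its weaker late day. ENDOU, an endoribonuclease, read -0.03, 0.44, 0.98 and 0.88. COQ2, an enzyme of coenzyme Q synthesis, read 0.66, 0.20, 0.61 and 0.69. ABCB8, a mitochondrial transporter, read -0.22 on day 2, 0.76 on day 3 and 0.585 on day 4. ABCA5, a transporter of the endosomal system, read -0.28, 0.11, 3.69 and 0.97 on its single probe, the highest day 3 value of any of the 4371 genes. PTGES3 (p23), a co-chaperone of HSP90, read 1.03, -0.03, 0.59 and 0.69, and ASPSCR1 (TUG), which tethers glucose transporter vesicles, 0.09, 0.24, 0.60 and 0.87.

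Nuclear proteins and a linker of the cytoskeleton made up the last group. PTMA (prothymosin α), a chromatin-associated acidic protein, read 0.78, 0.71, 0.67 and 0.76, nearly the same on each array. MSX2, a homeobox factor, read -0.08, 0.35, 0.62 and 1.30. ZNF764, a zinc finger protein, read 0.45, -0.47, 1.13 and 0.62, and POGK, which carries a transposase-derived domain, 1.63 and 0.76 on the late days alone. PMS2, a DNA mismatch repair protein, read 1.04 and 0.62, and its probe may also detect related pseudogenes. GAS2L3, which links actin and microtubules, read -0.20, -0.14, 0.75 and 0.87.

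Markers of other cell types were few in the set. HBB (β-globin) read 0.85, 0.98, 0.80 and 0.78 with 4 probes, and was the 1 of 12 measured red cell and stromal markers that met the rule. The medians of that list were -0.006 and -0.002, and its members ran from -0.24 to 0.80 on day 3. CD3D, a chain of the T cell receptor complex, read 0.09, -0.06, 0.62 and 0.81, and was the 1 of 22 T and NK cell markers in the set. Its probes stood at 0.15, 1.51 and 0.18 on day 3, and the list medians were -0.002 and -0.034. CST3 was the 1 of 14 myeloid markers in the set, whose list medians were -0.056 and 0.17, and 0 of 31 mature B cell genes met the rule. Over all genes 0.755% were higher and 0.549% lower, so counts of 0 or 1 in these lists say little. The part of other cells in these ratios was not tested.

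**Figure D4:**
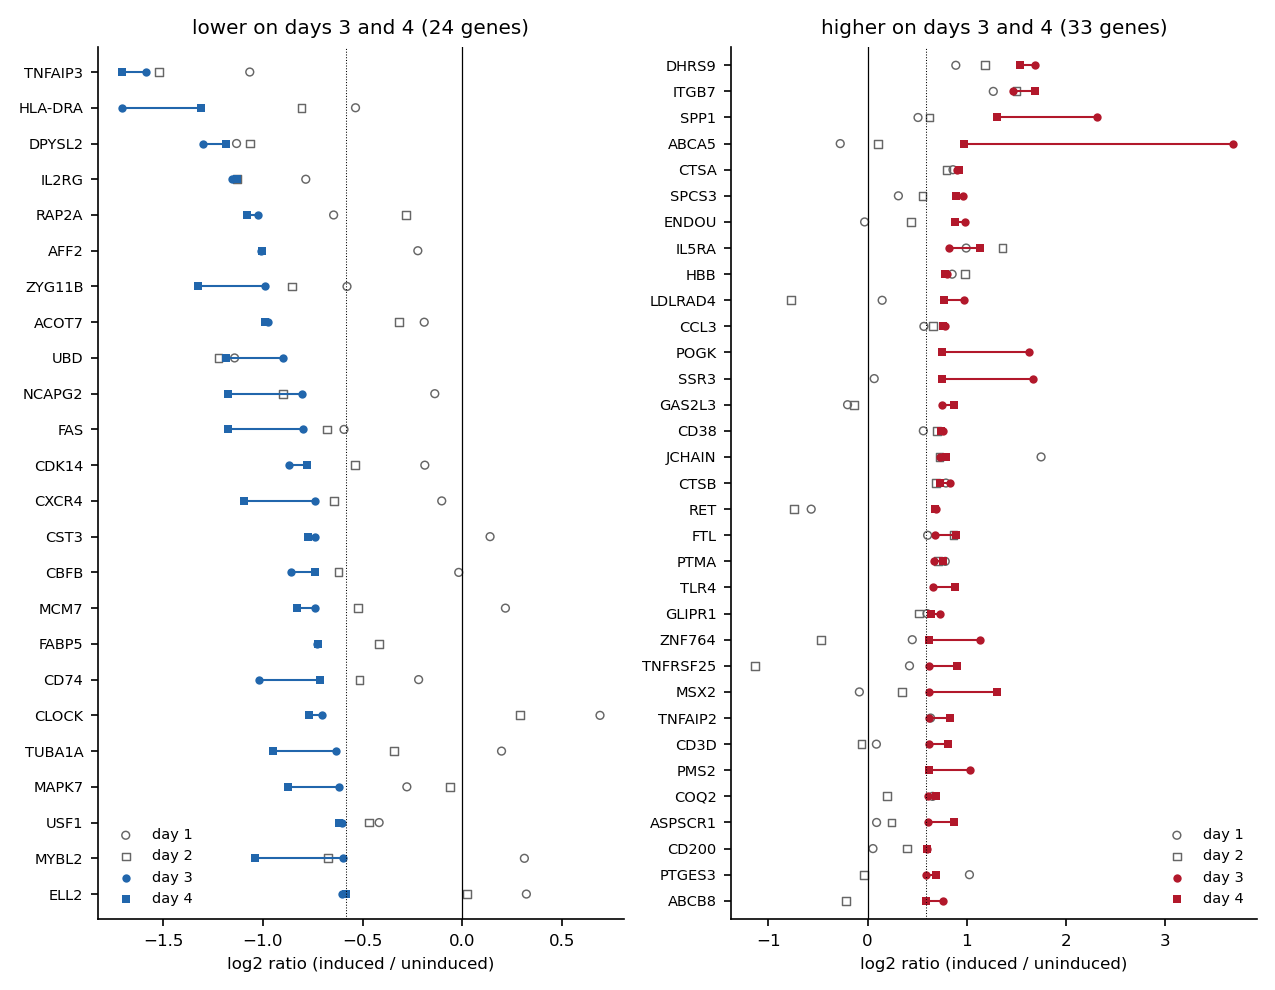
All 57 genes, the 24 lower on the left and the 33 higher on the right, ordered by the weaker of their day 3 and day 4 log2 ratios (induced over uninduced). Filled circles are day 3, filled squares day 4, joined by a line, open circles day 1 and open squares day 2, and the dotted line marks 0.585 or -0.585. Open symbols of DPYSL2, UBD, CTSA, CTSB, HBB and PTMA lie beside the filled ones, while those of CLOCK, RET, GAS2L3 and ELL2 lie across 0.

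The day 1 and day 2 arrays were not used to choose the genes and may share their control RNA with the late arrays, so their values stand beside the late ones as context. Of the 33 higher genes 27 had values on both early days, 3 on one of them, and POGK, TLR4 and PMS2 on neither. Of the 24 lower genes 21 had both and 3 had one. The median of the higher genes was 0.56 on day 1 and 0.48 on day 2, within ranges of -0.57 to 1.75 and -1.14 to 1.50. That of the lower genes was -0.22 and -0.58, within ranges of -1.14 to 0.69 and -1.52 to 0.29. The medians of all 4371 genes were -0.05 and -0.08, with 5th and 95th percentiles of -0.70 and 0.64 on day 1 and of -0.78 and 0.65 on day 2.

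A test of the mean of days 1 and 2 against 0 (limma, two-sided, Benjamini-Hochberg over 6594 genes and unnamed probes) called 1 feature, an unnamed probe (0.0152% called). Of the 48 genes of the late set that could be tested 0 passed, and their smallest adjusted p was 0.21. An unadjusted p under 0.05 was found for 21 of the 48, and for 16.2% of all features. ITGB7 had the smallest, with an early mean of 1.39 ± 0.17 (SD over the day 1 and day 2 arrays, limma adjusted p = 0.21). UBD followed at -1.18 ± 0.06 and TNFAIP3 at -1.29 ± 0.32 (limma adjusted p = 0.21 for each). RET was among the 21 with an early mean of -0.66 ± 0.12, on the other side of 0 from its late values. The test treats different days as replicates, and separate cultures are not stated. Its p-values reflect just the scatter between those arrays, which may be technical. The eBayes step of limma shares that scatter over all features, so a p-value does not rest on the gene's printed SD alone.

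**Figure D5:**
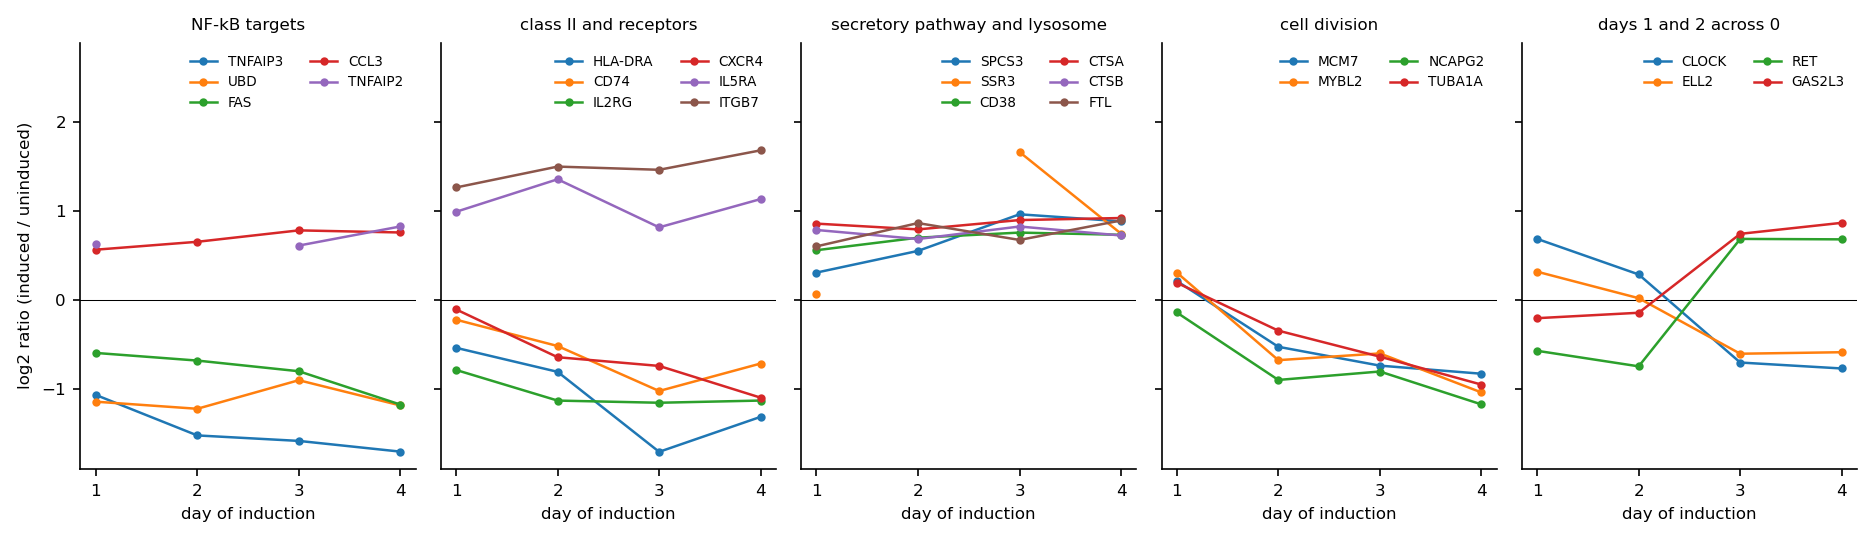
Log2 ratio of induced over uninduced cells by day of induction for 25 genes of the set, 1 line per gene and 1 panel per group, with a gap where a value is missing. CTSA stays between 0.80 and 0.92 on all days, the 4 cell division genes are near or above 0 on day 1 and lowest on day 4, and CLOCK, ELL2, RET and GAS2L3 lie on opposite sides of 0 before and after day 2.

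The number and spread of probes differed between members. A single annotated probe stood behind 28 of the 57 genes (49.1%), beside 39.2% of all 4371 genes. TLR4, GLIPR1, CDK14, MAPK7 and ZYG11B had further annotated probes, but only 1 with values on both late days. In 24 genes at least 2 probes had values on both late days, and in 22 of these every such probe lay on the side of the gene average on both days. The rule used the average of these same probes, so this count is a description and supports nothing. The exceptions were CD200 and CD74. In 7 genes every such probe also passed the threshold: DHRS9, ITGB7 and IL5RA were higher, and HLA-DRA, DPYSL2, IL2RG and UBD lower. Probes of a gene share the array and the RNA and are no replicates of the condition.

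Membership near the threshold rests on small differences. Just inside on the higher side were ABCB8 (0.76 and 0.585), PTGES3 (0.59 and 0.69) and CD200 (0.60 and 0.60), and just outside GOLM1 (0.62 and 0.57), COX14 (0.57 and 0.64) and TTBK2 (0.78 and 0.57). On the lower side ELL2 (-0.60 and -0.585), MYBL2 (-0.60 and -1.04) and USF1 (-0.60 and -0.62) were just inside. MYL2 (-0.58 and -0.58), SLC39A14 (-0.57 and -0.95) and ARHGAP19 (-0.56 and -1.01) were just outside.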

How the data were processed

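Arrays with 2 colours, comparing induced (Cy5) and uninduced (Cy3) EJM cells, were used for 4 days of induction, 1 array each. The deposited values are log ratios, taken as log2 here. Per the labels' protocols cDNA was labelled by reverse transcription. How the authors corrected background, normalized, filtered spots and chose the log base was not stated by any source used here. Without spot intensities no filter on dim spots was tried.

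Of 15246 probes 10169 carried 1 gene symbol, 4 several, and 5073 had none. A RefSeq table (GRCh38.p14), matched by Entrez identifier, supplied current symbols for 10128 probes. Probes of a symbol were averaged on each array. The threshold was log2 of 1.5. Days 1 and 2 were tested with lmFit and eBayes of limma 3.58.1 (R 4.3.3), and the code was tested on simulated data. Summaries used Python 3.11.15 and pandas 2.3.3.

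The members and the 31 gene lists were chosen with earlier results of these data known. Genes were named in full where they were among the 12 with the largest weaker late ratio in each direction, in a fixed list, next to the threshold or with probes of opposite sign, and every other member was named by its role. NFKBIA was named as the source of the transgene. Genes outside the 57 that are given as examples of a list were chosen after their values were seen. Alternatives covered probe averaging, centring, scaling, the threshold, the log base, the symbols and each array alone. The number of arrays limits the precision.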

Additional observations from a re-analysis of the deposited data

Results flagged for a closer look

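Among the 57 genes 4 had day 1 and day 2 values on the other side of 0 from both late values. The difference between the early and the late days was not tested. GAS2L3 had early values of -0.20 and -0.14 and late values of 0.75 and 0.87. RET read -0.57 and -0.74, then 0.69 and 0.68, and its late average rests on 1 probe (1.33 and 1.26), since the other read 0.05 and 0.11. CLOCK read 0.69 and 0.29, then -0.70 and -0.77, and ELL2 0.32 and 0.02, then -0.60 and -0.585, each on 1 probe.

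Probes without a gene name lie outside the set. Of 4275 with both late values, 123 met the same rule, 55 higher and 68 lower. The lowest stood at -2.61, -2.90, -3.08 and -3.01 on days 1 to 4, followed by one at -2.11, -2.62, -2.51 and -2.60. Both were farther from 0 on each late day than TNFAIP3. Their genes are not named here.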

How the results depend on the processing

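The counts of 33 higher and 24 lower genes stayed within 1.5 times under other probe averaging, centring, scaling and symbols, with 30 to 35 higher and 22 to 24 lower genes. With the median of the probes CD200, CD3D and FTL no longer met the threshold, with day 4 scaled to the spread of day 3 ABCB8, CD200, PMS2, ELL2 and USF1, and with centred arrays ELL2. The counts moved with the threshold itself: 3 higher and 6 lower genes at 2-fold, and 55 and 55 at 1.4-fold. With values taken as natural log they were 104 and 95. Without the day 4 array 112 higher and 50 lower genes passed, and without the day 3 array 137 and 83, since 1 array alone then decides. The weaker late log2 ratio of each of the 57 genes kept its sign under the other averaging, centring and scaling tried. The test on days 1 and 2 called 1 feature, 0 with centred arrays, 0 with day 2 scaled to day 1 and 3 with the median of the probes. Without the 50 bases after the start the share of lower genes with the κB consensus was again 21.1%, that of higher genes was 3.45% in place of 6.90%, and the share of lower genes with the 9-letter form was 15.8% in place of 21.1%. No paired analysis was possible because each day has 1 array, so the groups share only 1 replicate number. Signal over background is unknown, so how far dim spots shape single-probe genes was not tested.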

Other observations

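Ribosomal proteins, the building blocks of the translation machinery, were not represented among the 57 genes. Of 24 measured members 0 met the rule, which says little beside 0.755% higher and 0.549% lower over all genes. Above 0 on both late days lay 19 (79.2%), beside 35.2% of all genes, with medians of 0.12 and 0.15. The list medians were higher on days 1 and 2, at 0.42 and 0.29. RPS4X stood at 0.47 and 0.62 and RPL27 at 0.40 and 0.45. RPS15A read 0.12 on day 3 and 2.03 on day 4. Among mature B cell genes 20 of 31 (64.5%) lay above 0 on both days, beside 35.2% of all genes, with medians of 0.08 and 0.09. These examples were chosen after their values were seen. CD53, a tetraspanin of leukocytes, read 0.42 and 0.43.

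ABCA5 and SSR3, which differ most between the late days apart from SPP1, are measured by probes with consecutive identifiers. Both read far higher on day 3 (3.69 and 1.67) than on day 4 (0.97 and 0.75). Whether the probes were neighbours on the slide is not known here, and the cause was not tested.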
